A study of Salmo salar with 16 samples.

Results

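The comparison described here sets the spleens of Atlantic salmon fed a fishmeal diet (FM) against those of salmon fed soybean meal (SBM), and asks which programs of genes differ between them besides the hemoglobin genes. It covers 8 of the 16 fish of the study, 4 on FM and 4 on SBM, chosen by the diet that the sample labels give. The FM fish received the fishmeal control diet, and the SBM fish a diet with soybean meal at 40%, which the study used as a dietary challenge. All fish started at an average of 5.71 g, were kept in recirculated fresh water at 15 °C, and were sampled after 37 days of feeding. The other 8 fish received 40% soybean meal with 5% of the yeast Cyberlindnera jadinii, either heat-inactivated (ICJ) or autolysed (ACJ), and entered the model only to share its estimate of the spread between fish. The labels give no genotype, sex or age for the fish. Diets were fed to duplicated tanks, and the labels do not say which tank a fish came from, so tank and diet cannot be told apart and the p-values measure the spread between individual fish.

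The spleen of a bony fish filters blood. Its sinusoids and ellipsoids hold endothelial cells and macrophages, and immune complexes and worn blood cells are taken up there. In mammals, sinusoidal endothelium and macrophages take up hyaluronan and glycoproteins through scavenger receptors such as the stabilins, LYVE-1 and the mannose receptor. The cargo is broken down in lysosomes. The fish spleen also stores red cells and thrombocytes and contributes to blood formation. It holds B cells, T cells and a stroma that depends on the homeobox gene tlx1. Soybean meal is known in salmon mainly for the inflammation it can cause in the distal intestine. Gene roles given below are those known from mammals or zebrafish, as background.

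Between 5730980 and 6797937 fragments were counted on named genes in the FM fish and between 6440866 and 9075622 in the SBM fish, and 28929 genes passed the expression filter. Levels are given as CPM, the counts of a gene scaled to a common library size. In none of the 8 fish did a floor of 3 counts exceed 0.523 CPM, counting error alone considered. The labelled tissue was checked against its markers. A gene named T-cell leukemia homeobox protein 1-like, a copy of the spleen stroma marker tlx1, was present at 287.1 to 429.4 CPM in all 8 fish, the B cell gene cd79b at 130.4 to 198.6 CPM, the macrophage gene mpeg1 at 430.4 to 1072 CPM and the red cell gene alas2 at 1395 to 4963 CPM. The first 3 of these markers were chosen after their values were seen. Of 9 liver markers, only fgg, a fibrinogen chain, passed the filter, at 0 to 1.402 CPM. Pancreas genes were also present, and they differed widely between fish within both diets. The sum of the 7 pancreas markers tested ran from 1841 to 13884 CPM in FM and from 4.97 to 6043 CPM in SBM, with the lowest value in SBM1 and the highest in FM1. None of the 7 had an unadjusted p below 0.05 between the diets.

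With edgeR's quasi-likelihood test and Benjamini-Hochberg adjustment, 125 genes were differentially expressed (DEGs) between FM and SBM at an adjusted p below 0.05, which is 0.432% of the genes tested. Of these, 32 were higher in FM (0.111% of genes tested) and 93 were lower in FM (0.321%). Their median log2 fold change was 0.74 for those higher in FM and -0.53 for those lower, where values are FM over SBM throughout. In 121 of the 125, no FM fish lay within the range of the 4 SBM fish, which follows largely from calling them on these same values. Over all tested genes, 8.18% showed no such overlap. DESeq2 on the same fish called 734 genes, 387 higher and 347 lower in FM, which is 3.48% of the 21072 genes it tested, and these included 116 of the 125.

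The number of DEGs depended on which fish entered the fit. Without FM1 it was 670, or 2.28% of the genes tested in that fit, with 0.91% higher and 1.37% lower in FM, and it was 23, 9 and 5 without FM2, FM3 and FM4. Leaving out SBM1, SBM2, SBM3 or SBM4 gave 65, 5, 14 and 32 DEGs. FM1 stood closest to the SBM fish: it was the FM fish nearest to SBM in 18 of the 32 DEGs higher in FM and in 51 of the 93 that were lower, while over all tested genes it was nearest in 33.6% of those higher and 32.6% of those lower in FM. All 125 DEGs were also called without FM1. Only 5 were called in each of the 8 fits that left out 1 fish, namely shmt2, mrc1, an ependymin-like gene, gamma-glutamyltransferase 5-like and anoctamin-1-like.

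**Figure D1:**
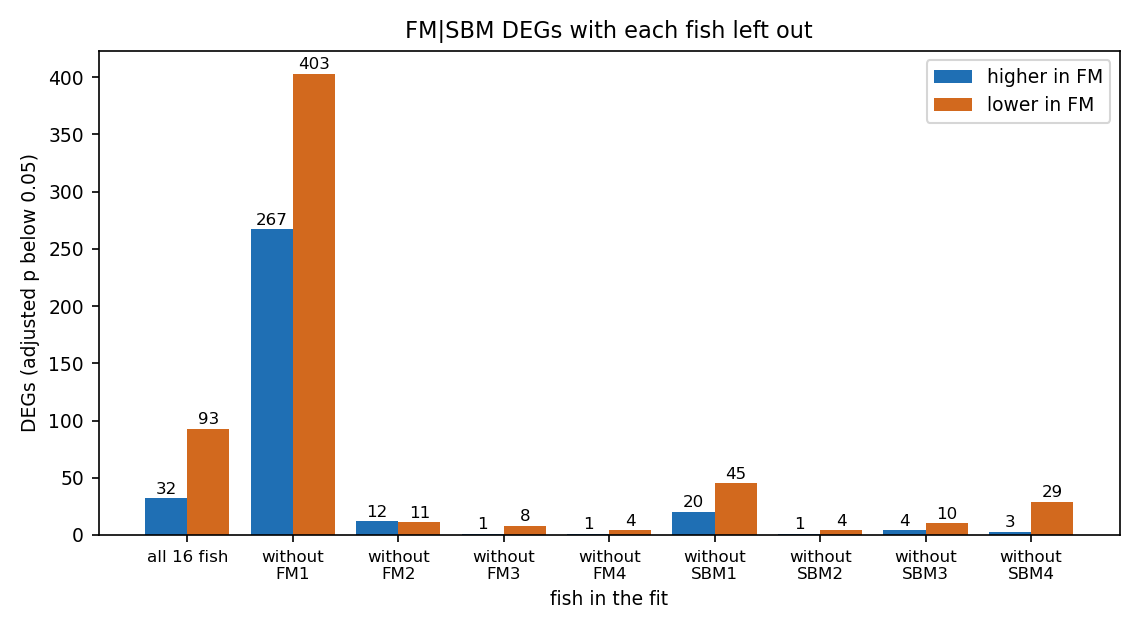
Number of FM|SBM DEGs (adjusted p below 0.05, edgeR) with all 16 fish in the fit and after removal of each of the 8 fish in turn, as bars for genes higher and lower in FM. The count was 125 with all fish, 670 without FM1 and between 5 and 65 without any of the other 7 fish.

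To read the programs, all tested genes were searched for the members of 30 lists, matched by gene symbol, and each list is described by its counts and its median beside those of all tested genes. Over all genes the median log2 fold change was 0.01, 7.49% were higher and 7.24% lower in FM at an unadjusted p below 0.05, and 4.15% and 4.03% were higher or lower with no overlap between the diets. The lists named next were of 3 kinds. Lists of scavenger receptors, endothelium, stroma and lysosomal enzymes lay below this background in FM, lists of red cells, thrombocytes, B cells and serine and folate metabolism lay above it, and lists of ribosomes, proteasome, respiration, T cells and antigen presentation lay close to it. Negative medians were also found for cytokines (-0.25), complement (-0.24), Notch and semaphorin signalling (-0.21) and cell cycle (-0.17), against -0.18 for lysosomal enzymes. Since whole spleens were sequenced, fewer cells of a type and less RNA per cell cannot be told apart in any of these lists.

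Red cell RNA took a larger share of the counts in the FM fish than in the SBM fish. Hemoglobin genes took 3.23%, 3.94%, 5.60% and 6.64% of the counts in FM1 to FM4 and 2.75%, 2.33%, 1.53% and 2.68% in SBM1 to SBM4, and all 122 red cell genes together took 4.53% to 8.80% in FM and 2.45% to 3.97% in SBM. In both shares every FM fish was above every SBM fish, and FM3 and FM4 were the highest. Both shares include genes found only through the study's lists, 12 of the 17 hemoglobin genes among them. The authors drew those lists from comparisons among the diets of the study, these fish included, so the separation is partly built in. None of the 17 hemoglobin genes was called by edgeR. The mean of the 5 hemoglobin genes matched by symbol overlapped, with FM2 at 6.98 and SBM1 at 7.06 log2 CPM. When the red cell genes were removed before scaling, 108 genes were called and all 108 were among the 125. Beyond this scaling, the part of red cell RNA in the differences of the other lists was not tested.

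**Figure D2:**
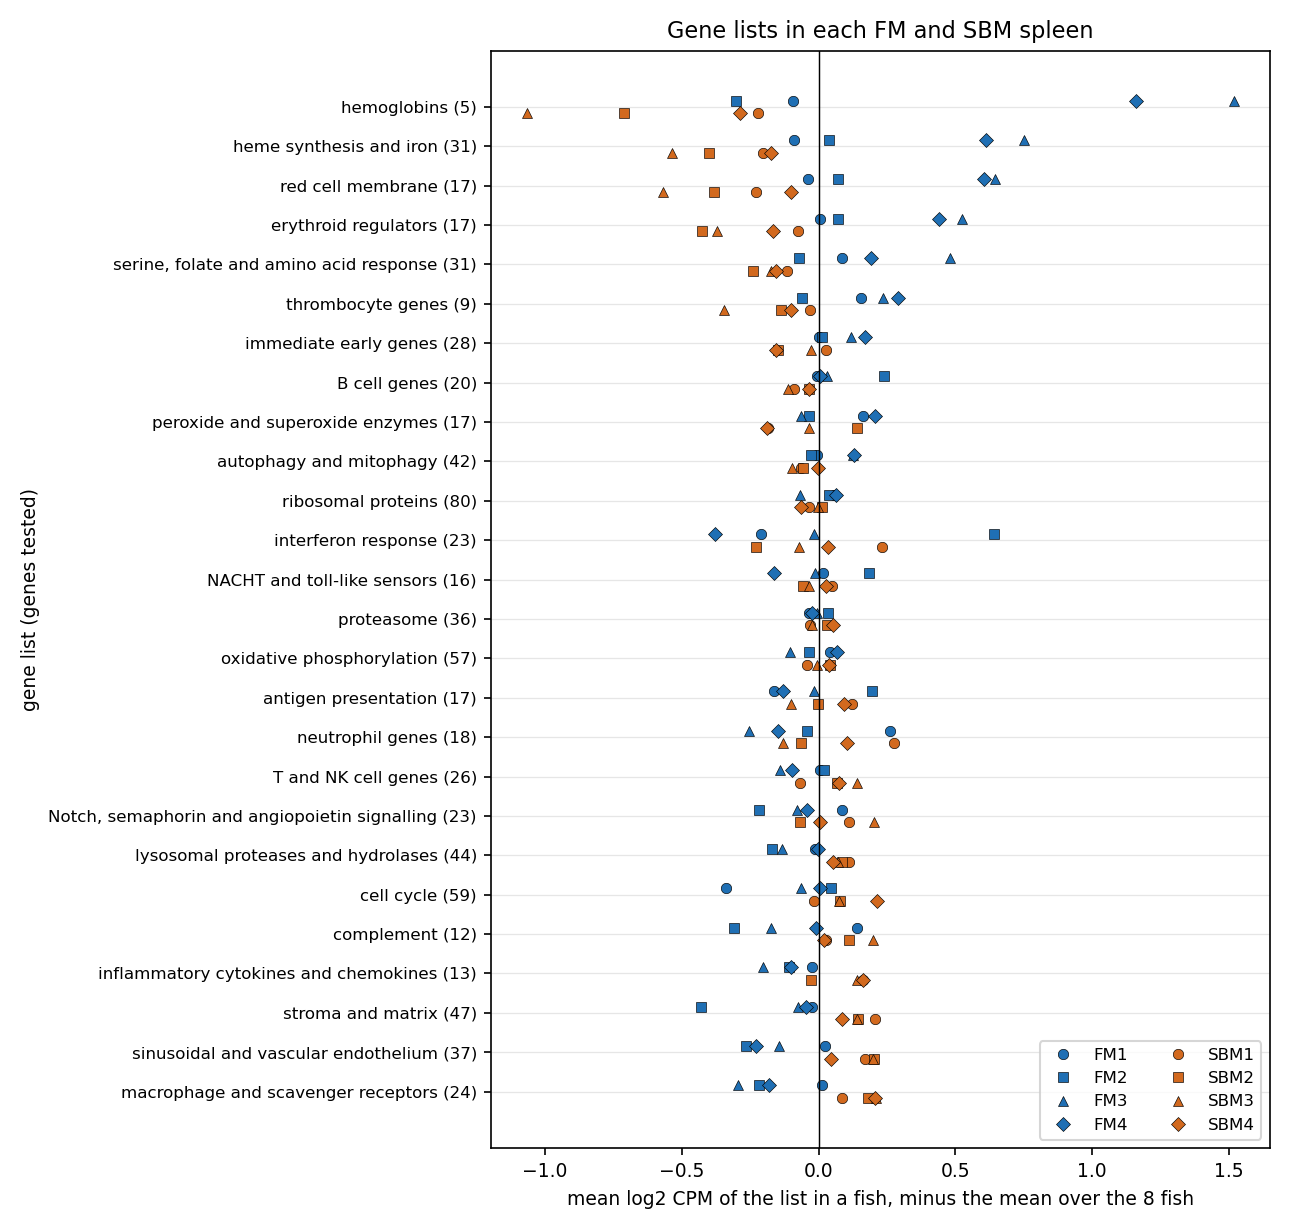
Mean log2 CPM of the tested members of 26 gene lists in each fish, minus the mean over the 8 fish, with FM in blue, SBM in orange and marker shapes for replicates 1 to 4. The scavenger receptor, endothelium, stroma and lysosome lists were lower in all 4 FM fish than in any SBM fish, with FM1 (or, for lysosome, FM4) nearest to SBM, and the heme, red cell membrane and erythroid regulator lists were higher in all 4 FM fish, with FM3 and FM4 farthest from SBM.

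Genes of macrophages and scavenger receptors were lower in FM across the list. All 24 members tested had a negative log2 fold change, against 14171 of the 28929 genes in all, with a median of -0.34. Of the 24, 3 were called (mrc1, dab2 and dab2_1), where 0.321% of all genes were called as lower in FM. An unadjusted p below 0.05 was found in 10 (41.7% of the list against 7.24% of all genes lower in FM). No overlap between diets was seen in 7, all lower in FM (29.2% against 4.03% of all genes). The centred mean of the list was 0.01, -0.22, -0.30 and -0.18 in FM1 to FM4 and 0.09, 0.18, 0.21 and 0.21 in SBM1 to SBM4 on the log2 scale. No FM fish reached the SBM range, and FM1 came closest. With the red cell genes removed before scaling the median was -0.33.

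The most abundant of these DEGs was mrc1, the mannose receptor, an endocytic receptor of macrophages and sinusoidal endothelium, located on chromosome 29 between 11837790 and 11855027 (build ICSASG_v2, as for all positions here). Values were 965.6, 777.1, 1063 and 931.4 CPM in FM1 to FM4 and 1473, 1785, 1458 and 1315 CPM in SBM1 to SBM4. Every SBM fish was above every FM fish, with SBM2 the highest and FM2 the lowest. The log2 fold change was -0.69 (standard error 0.10, adjusted p = 0.00628 from edgeR), and mrc1 stayed called with each fish left out, at an adjusted p of 0.0379 or less. Collectin-12-like, a membrane lectin that acts as a scavenger receptor, lies in the same region of chromosome 29 (11930961 to 11997272) and was found through its name in the study's gene lists. It had 14.5, 9.46, 13.6 and 11.7 CPM in FM and 25.6, 19.3, 26.2 and 20.7 CPM in SBM, again without overlap, a log2 difference of -0.91 with standard error 0.17 (adjusted p = 0.0291). Both tested copies of dab2, an adaptor that links endocytic receptors to clathrin, were lower in FM. The copy dab2 went from 78.5 ± 6.67 CPM on SBM to 55.6 ± 7.16 on FM (SD over n = 4 fish), and dab2_1 from 140.3 ± 17.6 to 100.6 ± 11.3 (edgeR adjusted p = 0.0458 and 0.0389). C-type lectin domain family 4 member M-like, another lectin named by the study's lists, had 26.9 to 34.5 CPM in FM and 36.4 to 50.3 CPM in SBM, with FM1 the highest FM fish (log2 fold change -0.58, adjusted p = 0.0366). The authors drew those lists from these same fish, so the calls of this lectin and of collectin-12-like were partly set beforehand. The complement gene c1qb, the most abundant of the list, averaged 1485 ± 237 CPM on FM and 1769 ± 252 CPM on SBM (SD over n = 4 fish) with overlapping ranges and did not pass the test (edgeR adjusted p = 0.306). Likewise mpeg1, which encodes perforin-2, averaged 717 ± 148 and 795 ± 275 CPM in FM and SBM (SD over n = 4 fish, edgeR adjusted p = 0.892). With each fish left out, between 1 and 5 genes of the list were called, the 5 without FM1.

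The list of sinusoidal and vascular endothelium held the most DEGs. Of 37 members tested, 9 were called, all lower in FM, a direction called in 0.321% of all genes. At an unadjusted p below 0.05, 19 were lower (51.4% against 7.24% of all genes) and 1 was higher. No overlap between the diets was seen in 16, all lower in FM (43.2% against 4.03% of all genes), and the median log2 fold change was -0.30. DESeq2 called 16 members, all lower in FM, where it called 1.65% of the 21072 genes it tested as lower. The centred list mean was 0.02, -0.27, -0.14 and -0.23 in FM1 to FM4 and between 0.05 and 0.20 in the SBM fish, so that FM1 lay just below SBM4. The number of members called was 15 without FM1 but 0 without FM2, FM4 or SBM2, 1 without SBM3, 2 without FM3, 3 without SBM1 and 4 without SBM4, and 0 when only the 8 fish were fitted. The median stayed between -0.41 and -0.23 over these fits.

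Receptors that clear hyaluronan and other ligands from blood and lymph led the endothelial DEGs. The receptor stab2 (stabilin-2, chromosome 7, 38459837 to 38495002), which takes up hyaluronan in sinusoidal endothelium, had 123.4, 111.0, 193.7 and 151.0 CPM in FM and 254.1, 292.1, 247.8 and 225.4 CPM in SBM. The highest FM fish, FM3, was still below the lowest SBM fish, SBM4. Its log2 fold change was -0.82 (standard error 0.14, adjusted p = 0.0291), and it was called in 4 of the 8 leave-one-out fits. The related stab1 averaged 226.5 ± 49.0 CPM on FM and 325.0 ± 32.7 CPM on SBM (SD over n = 4 fish) and did not pass (edgeR adjusted p = 0.0922). For the hyaluronan receptor LYVE-1, both tested copies were lower in FM. The gene xlkd1, an older symbol for this receptor, had 90.0, 70.4, 65.3 and 59.4 CPM in FM and 110.4, 138.5, 107.7 and 111.6 CPM in SBM, with FM1 the highest of FM and SBM2 well above the other SBM fish. The second copy, lyve1b, averaged 28.7 ± 2.26 CPM on FM and 44.6 ± 6.46 CPM on SBM (SD over n = 4 fish). Log2 fold changes were -0.72 (standard error 0.12, edgeR adjusted p = 0.0177) and -0.63 (standard error 0.12, adjusted p = 0.0317).

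A gene for the chemokine-scavenging receptor GPR182, named through the study's lists (chromosome 13, 36017211 to 36021191), had 75.3, 49.9, 66.9 and 53.5 CPM in FM and 96.8, 106.4, 98.6 and 84.9 CPM in SBM. All FM fish were lower, by 0.66 on the log2 scale (adjusted p = 0.0291), and its second copy gp182 had the same direction without passing (adjusted p = 0.0912), with FM1 at 85.5 CPM inside the SBM range. Also called and lower in FM were oit3, a gene of liver sinusoidal endothelium in mammals (log2 fold change -0.66), vegfc, the growth factor of lymphatic vessels (-0.61), adgrl4, an adhesion receptor of endothelial cells (-0.43), arhgap31, a regulator of the GTPases CDC42 and RAC1 (-0.44), mmrn2, an endothelial matrix protein (-0.41), and erg, an ETS factor that maintains endothelial identity (-0.35). In mmrn2 the 4 SBM fish were close together at 76.7 to 78.9 CPM and the FM fish lay between 53.3 and 66.2 CPM. Through the study's gene names, complement component C1q receptor-like, a relative of the endothelial glycoprotein CD93 (-0.61), and angiopoietin-2-like (-0.39) joined them. The study's lists were drawn from these same fish, so calls of genes named through them, the GPR182 gene included, were partly set beforehand. The Tie2 receptor gene tek (-0.41), plvap of fenestral diaphragms (-0.50) and the VEGF receptor gene kdr (-0.25) did not pass, with edgeR adjusted p-values of 0.0847, 0.0847 and 0.139. These last 3 genes, stab1 and gp182 were chosen after their values were seen. The most abundant members were protein c-ets-1-B, an ETS factor named by the study's lists, at 286.7 to 434.2 CPM in FM and 439.8 to 501.9 CPM in SBM, and nr2f2, a nuclear receptor of venous and lymphatic identity, at 260.1 to 296.9 and 311.8 to 334.4 CPM. Neither overlapped between diets and neither was called (log2 fold changes -0.47 and -0.23, edgeR adjusted p = 0.0912 and 0.114).

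**Figure D3:**
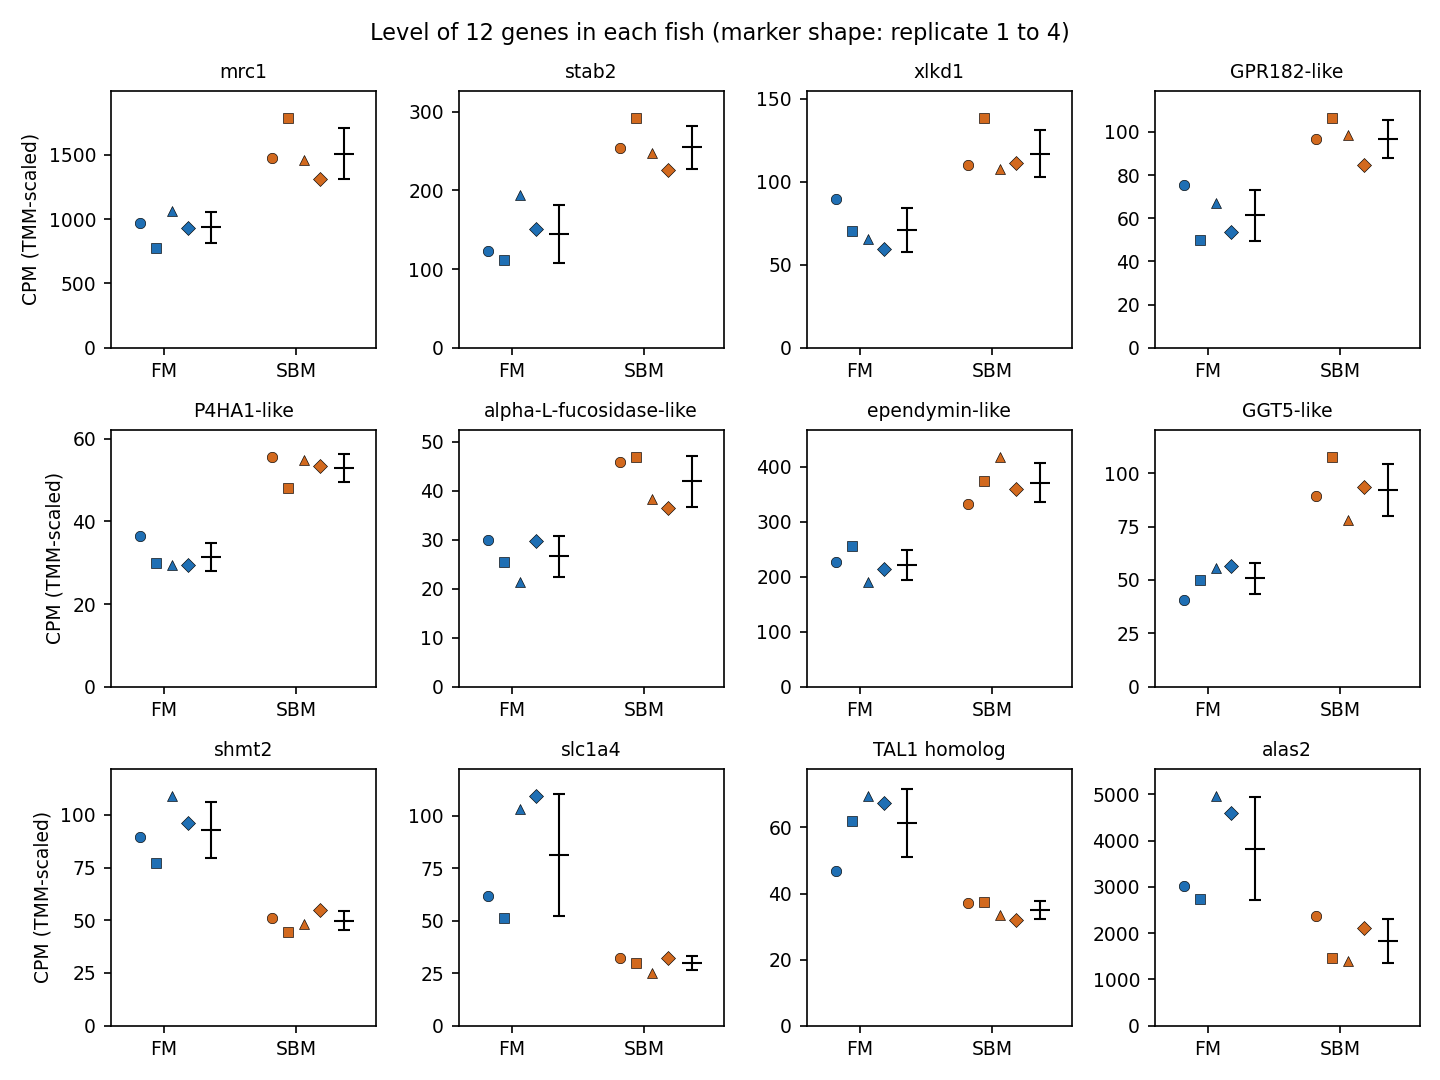
CPM of 12 genes in each FM and SBM fish (marker shapes for replicates 1 to 4) with the mean and SD of 4 fish beside them, each axis starting at 0. All but alas2 were DEGs, called on these same values, so the lack of overlap between the diets in the 12 genes was largely set by that choice. Over all tested genes, 8.18% showed no overlap. The 4 FM fish were close together for genes such as ependymin-like and far apart for slc1a4 and alas2.

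Stroma and matrix genes were lower in FM by a smaller amount. Of 47 members tested, 44 had a negative log2 fold change, with a median of -0.25. At an unadjusted p below 0.05, 14 were lower (29.8% against 7.24% of all genes) and 1 higher in FM. Without overlap, 8 were lower in FM (17.0% against 4.03% of all genes). The 2 members called were cxcl12 and meis2, where 0.321% of all genes were called as lower. FM2 was far below the other FM fish, with a centred mean of -0.43 against -0.02, -0.07 and -0.05 in FM1, FM3 and FM4, while the SBM fish lay between 0.08 and 0.21. Without FM2 the median was -0.14 and no member was called, and the same count of 0 was found without FM3, FM4, SBM2 or SBM3, while 5 were called without FM1 and 1 without SBM1 or SBM4. The chemokine gene cxcl12, which retains leukocytes and progenitors in stromal niches, had 95.5, 91.6, 97.1 and 88.9 CPM in FM and 145.2, 127.1, 133.5 and 107.1 CPM in SBM. The FM fish were close together and all below SBM, and the log2 fold change was -0.46 (standard error 0.10, adjusted p = 0.0479). The homeobox gene meis2 averaged 45.2 ± 6.34 CPM on FM and 66.9 ± 5.78 CPM on SBM (SD over n = 4 fish, log2 fold change -0.57, edgeR adjusted p = 0.0317), and pre-B-cell leukemia transcription factor 3-like, from the family that pairs with MEIS proteins, had a log2 fold change of -0.63 (adjusted p = 0.0478). The tlx1 copy named above averaged 315.9 ± 35.3 CPM on FM and 412.6 ± 16.5 CPM on SBM (SD over n = 4 fish) and did not pass the test (edgeR adjusted p = 0.0907).

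Of 21 further stroma and matrix genes that the study's lists name, 5 were DEGs, all lower in FM, against 0.321% of all tested genes. The authors drew those lists from these same fish, so this count and its direction were partly set by that choice. Prolyl 4-hydroxylase subunit alpha-1-like is a collagen-modifying enzyme encoded at 21501567 to 21518820 of chromosome 18. It showed 36.4, 30.0, 29.6 and 29.5 CPM in FM and 55.6, 48.1, 54.8 and 53.3 CPM in SBM. FM1 stood above the other FM fish and below all SBM fish, and the log2 fold change was -0.76 (standard error 0.15, adjusted p = 0.0409). EMILIN-1-like, an elastic fibre glycoprotein, had 71.4 to 76.2 CPM in FM and 101.3 to 110.4 CPM in SBM, narrow ranges that were well apart (log2 fold change -0.51, adjusted p = 0.0177). Metalloproteinase inhibitor 2-like, a copy of the inhibitor TIMP2, fell from 369.9 ± 24.1 CPM in SBM to 275.1 ± 29.9 in FM (SD over n = 4 fish, edgeR adjusted p = 0.0291), and EGF-containing fibulin-like extracellular matrix protein 2, needed for elastic fibres, from 130.7 ± 9.89 to 102.4 ± 6.97 (adjusted p = 0.0479). The most abundant member matched by symbol, the collagen I gene col1a1b, had 1003 to 1735 CPM in FM and 1618 to 1816 CPM in SBM, with FM4 inside the SBM range (edgeR adjusted p = 0.257). The fibronectin gene fn1a, next in abundance, had 576.0 to 942.2 CPM in FM and 955.7 to 1016 CPM in SBM, without overlap and without a call (adjusted p = 0.30).

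Genes of Notch, semaphorin and angiopoietin signalling were mixed in sign. Of 23 members tested, 14 were lower and 9 higher in FM, with a median log2 fold change of -0.21. At an unadjusted p below 0.05, 7 were lower (30.4% against 7.24% of all genes) and 3 higher. Without overlap, 4 were lower (17.4% against 4.03% of all genes) and 1 higher. The list mean overlapped between the diets. The 1 member called was nrarpa, a direct target and feedback inhibitor of Notch. It had 24.5, 16.1, 21.5 and 19.5 CPM in FM and 34.3, 30.5, 35.6 and 31.0 CPM in SBM, with no overlap (log2 fold change -0.69, standard error 0.15, adjusted p = 0.0460). Without FM1 it was the single member called as well, and 0 were called without any of the other 7 fish. Among genes named in the study's lists, which the authors drew from these same fish, a HES-1-like Notch target (-0.62), a Notch 2-like receptor (-0.47), a plexin-D1-like semaphorin receptor (-0.49) and neuropilin-2-like, a receptor shared by semaphorins and VEGF-C (-0.41), were DEGs without overlap. A second plexin-D1-like gene was also called (-0.43, adjusted p = 0.0478), although FM1 at 160.8 CPM lay above SBM4 at 158.4 CPM. The other notch2 gene was far more abundant and differed little, with 229.3 to 253.3 CPM in FM and 252.5 to 265.0 CPM in SBM.

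Genes of the list of lysosomal proteases and hydrolases also leaned lower in FM. Of 44 members tested, 37 had a negative log2 fold change, and the median was -0.18. At an unadjusted p below 0.05, 13 were lower in FM (29.5% against 7.24% of all genes) and 0 higher, and 4 were called. Those 4 were lgmn, the asparaginyl endopeptidase legumain, prcp, a prolyl carboxypeptidase, hyal1, a hyaluronidase, and npl. The gene npl encodes a lyase that degrades sialic acid, so it is neither a protease nor a hydrolase. For lgmn the values were 151.7, 112.9, 132.0 and 141.7 CPM in FM and 175.1, 181.5, 178.3 and 181.0 CPM in SBM. The SBM fish were tightly grouped above all FM fish, and the log2 fold change was -0.41 (standard error 0.08, adjusted p = 0.0316). A further 5 members are named only by the study's lists, and 3 of them were DEGs lower in FM, against 0.321% of all tested genes. The authors drew those lists from these same fish, so this count was partly set by that choice.

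The first of these, tissue alpha-L-fucosidase-like, which removes fucose from glycoproteins, had 30.0, 25.4, 21.3 and 29.8 CPM in FM and 45.9, 46.9, 38.3 and 36.5 CPM in SBM, without overlap (log2 fold change -0.65, standard error 0.12, adjusted p = 0.0297). Hyaluronidase-2-like lies next to hyal1 on chromosome 12 (75731518 to 75735869 and 75737512 to 75740667), and both were lower in FM, by 0.52 and 0.45 on the log2 scale. A gene named hyaluronidase-3-like, chosen after its values were seen, went the other way without a call. It had 247.1, 209.3, 284.4 and 379.3 CPM in FM and 169.2, 162.8, 124.3 and 186.8 CPM in SBM, with every FM fish higher (log2 fold change 0.80, standard error 0.29, adjusted p = 0.212). A digestive cysteine proteinase gene, which RefSeq lists as zgc:110239, averaged 79.8 ± 6.07 CPM on FM and 117.6 ± 8.12 CPM on SBM (SD over n = 4 fish, edgeR adjusted p = 0.0113) and was called in 6 of the 8 leave-one-out fits. The most abundant members did not pass: psap, the precursor of the saposins, had a log2 fold change of -0.13 and a cathepsin B-like gene one of -0.35 (edgeR adjusted p = 0.529 and 0.0847). The 4 calls of the list rested on every fish but FM1: 7 members were called without FM1 and 0 without any of the other 7 fish. With the red cell genes removed before scaling 2 were called, and the median was -0.18.

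Among genes of serine, folate and amino acid supply, 2 were DEGs, both higher in FM. Of 31 members tested, 12 were higher in FM at an unadjusted p below 0.05 (38.7% against 7.49% of all genes), 1 was lower, and 8 were higher without overlap. The median log2 fold change was 0.22, with 20 members higher and 11 lower in FM, so single members went both ways. The centred list mean was 0.09, -0.07, 0.48 and 0.19 in FM1 to FM4 and between -0.24 and -0.12 in the SBM fish. Every FM fish was thus above every SBM fish in the list mean, with FM2 nearest to SBM. The 2 DEGs were shmt2, the mitochondrial serine hydroxymethyltransferase that loads folate from serine, and slc1a4, a transporter of serine, alanine and cysteine. The gene shmt2 had 89.4, 77.0, 108.9 and 96.0 CPM in FM and 51.3, 44.4, 48.1 and 55.0 CPM in SBM, and was higher in every FM fish (log2 fold change 0.90, standard error 0.12, adjusted p = 0.00626). The transporter slc1a4 had 62.0, 51.3, 103.1 and 109.4 CPM in FM and 32.1, 30.1, 24.9 and 32.3 CPM in SBM. FM3 and FM4 were well above FM1 and FM2, which were in turn above all SBM fish, and the log2 fold change was 1.45 (standard error 0.29, adjusted p = 0.0479).

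The mitochondrial folate enzyme mthfd2, the next step after shmt2, was the most abundant member. It had 290.5, 336.6, 553.3 and 530.3 CPM in FM and 189.8, 151.9, 149.7 and 213.9 CPM in SBM, and the same pair of FM fish stood out. With this spread its log2 fold change of 1.28 had a standard error of 0.33 and did not pass in edgeR (adjusted p = 0.111), whereas DESeq2 gave 0.00786. Asparagine synthetase (asns), the glutathione-degrading enzyme chac1 and the serine synthesis enzyme psat1 had log2 fold changes of 0.62, 0.81 and 0.71 (edgeR adjusted p = 0.110, 0.161 and 0.197), while atf4 itself, the transcription factor that drives these genes, had one of -0.06, trib3 one of -0.08 and sesn1 one of -0.22. Apart from sesn1, the members in this paragraph that did not pass, other than mthfd2, were chosen after their values were seen. FM3 and FM4, the FM fish with more red cell RNA, were also the highest FM fish in slc1a4, mthfd2 and shmt2. For shmt2 the gap was small, with 96.0 CPM in FM4 and 89.4 CPM in FM1. The part of red cell RNA in these 3 genes was not tested. With red cell genes removed before scaling, 1 member was called and the list median was 0.22. Leaving out 1 fish gave 3 calls without FM1, 2 without FM2 or SBM3 and 1 without any of the other 5. Of these 8 fits, shmt2 was called in all, and slc1a4 in 1 only, that without FM1.

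**Figure D4:**
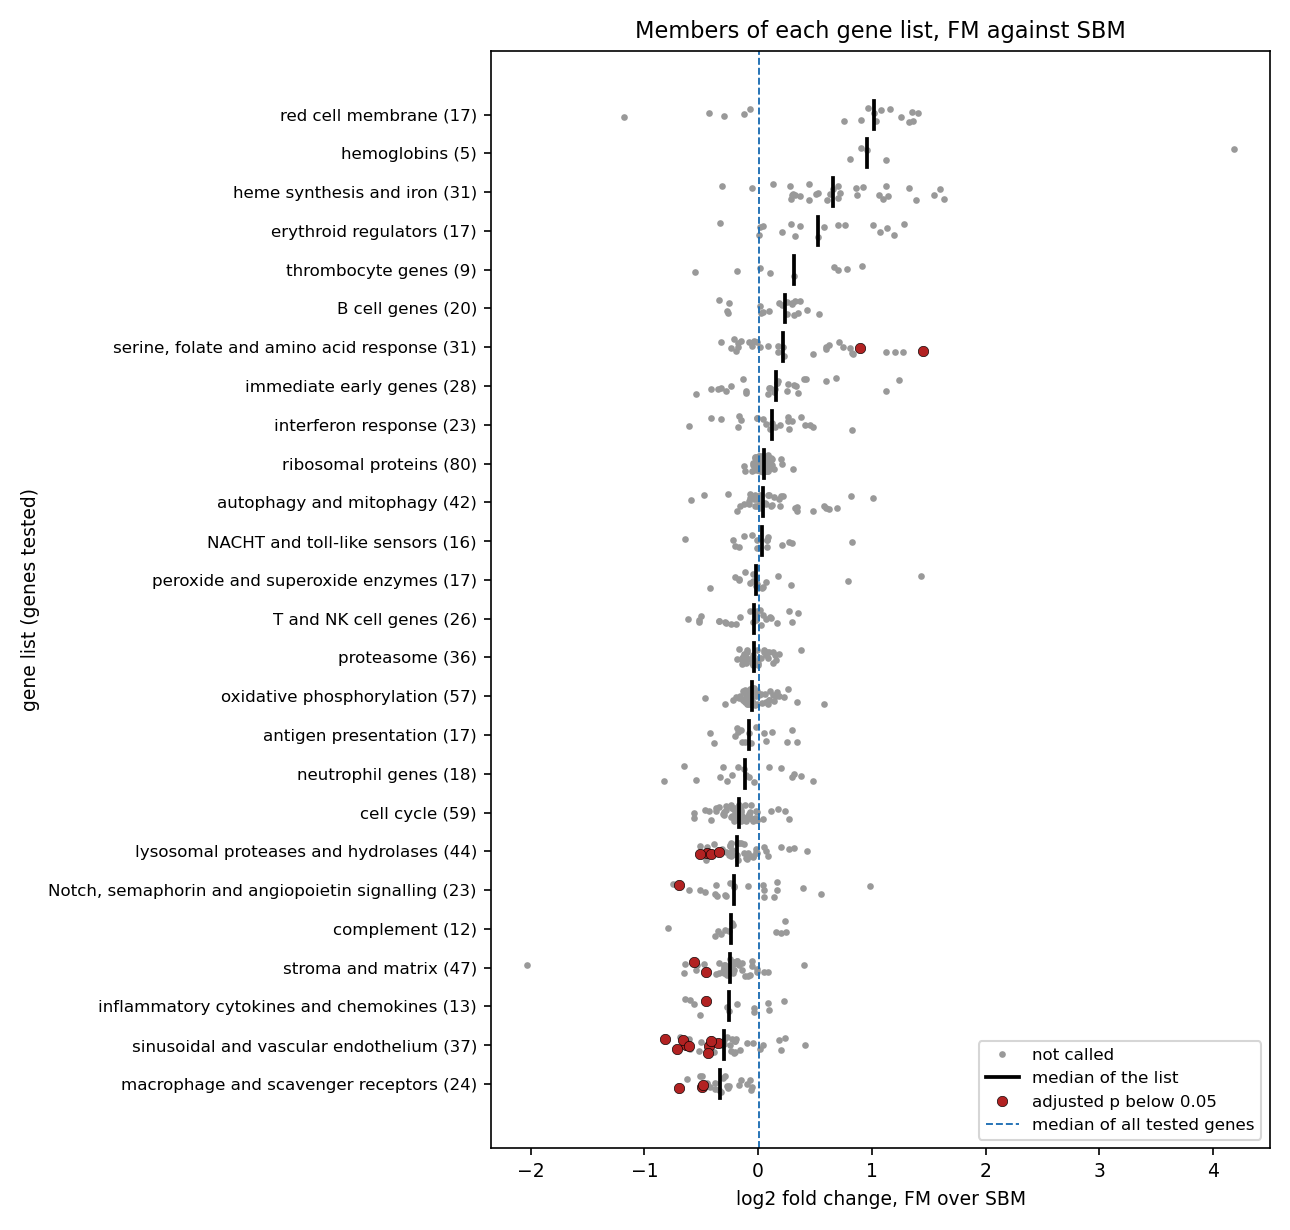
Log2 fold change (FM over SBM) of every tested member of 26 gene lists, with the list median as a bar, DEGs in red and the median of all tested genes (0.01) as a dashed line. DEGs were all lower in FM in the scavenger receptor, endothelium, stroma and lysosome lists and both higher in FM in the serine and folate list, and the members of the red cell lists matched by symbol had large fold changes with no DEG.

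Beyond hemoglobin, most genes of the red cell lists had higher values in FM. Only 1 passed the test, a transcription factor homolog named by the study's lists and described below. Of 31 genes of heme synthesis and iron supply, 29 had a positive log2 fold change with a median of 0.66, and 24 had an unadjusted p below 0.05 (77.4%), but 0 were called by edgeR. DESeq2 called 11 of them, all higher in FM, where it called 1.84% of all genes as higher. Red cell membrane genes had a median of 1.02 and erythroid regulators one of 0.53, with 12 of 17 members in each at an unadjusted p below 0.05 in favour of FM, 0 called by edgeR and 9 and 7 called by DESeq2. Without FM1, edgeR called 1 heme gene, 1 membrane gene and 3 regulators. The fold changes were large and the FM fish were far apart. The heme list mean was -0.09, 0.04, 0.75 and 0.61 in FM1 to FM4 and between -0.54 and -0.17 in the SBM fish.

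The first enzyme of heme synthesis, alas2, had 3013, 2738, 4963 and 4586 CPM in FM and 2369, 1465, 1395 and 2106 CPM in SBM. No FM fish overlapped with SBM, yet FM1 and FM2 lay nearer to SBM1 than to FM3, and the log2 fold change of 1.06 had a standard error of 0.36 (adjusted p = 0.193). Ferritin heavy chain (frih) showed 3518, 3237, 3909 and 4697 CPM in FM and 2853, 2700, 2306 and 2776 CPM in SBM, a smaller step of 0.53 (standard error 0.16, adjusted p = 0.148). The transferrin receptor gene tfr1a, chosen after its values were seen, ranged from 809.9 to 2603 CPM in FM and from 395.6 to 711.9 CPM in SBM, and the carbonic anhydrase gene cahz from 866.2 to 1971 CPM and from 380.5 to 746.6 CPM, each without overlap. The membrane water channel gene aqp1, also expressed outside red cells, had the opposite sign, with a log2 fold change of -0.43 and overlapping fish. In all, 5 of the 17 membrane genes had lower values in FM, 1 of them at an unadjusted p below 0.05 and 2 without overlap. The latter, chosen after their values were seen, were ank1b, an ankyrin, at 0.893 to 2.72 CPM in FM and 3.13 to 4.95 CPM in SBM (log2 fold change -1.18, adjusted p = 0.266), and slc29a1a, a nucleoside transporter, at 11.6 to 15.5 and 15.7 to 17.3 CPM (-0.30, adjusted p = 0.394).

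A single gene of the red cell lists was called, a homolog of the transcription factor TAL1 (LOC106590038, chromosome 2, 55752059 to 55761790), which the study's lists name. It had 46.8, 62.0, 69.5 and 67.5 CPM in FM and 37.1, 37.4, 33.4 and 32.1 CPM in SBM. FM1 lay between the other FM fish and SBM, and the log2 fold change was 0.81 (standard error 0.14, adjusted p = 0.0285), with a call in 2 of the 8 leave-one-out fits. Since the authors drew the study's lists from these same fish, this call was partly set by that choice. A second TAL1-like gene (LOC106590324), also named by the study's lists, was more abundant and was not called. It was at 84.8 CPM in FM1, 127.6 to 137.2 CPM in the other FM fish and 70.5 to 91.1 CPM in SBM (adjusted p = 0.110). The partner factor gata1, chosen after its values were seen, averaged 83.0 ± 27.4 CPM on FM and 37.6 ± 4.99 CPM on SBM (SD over n = 4 fish, edgeR adjusted p = 0.102), and the erythropoietin receptor gene epor 101.8 ± 50.9 and 44.3 ± 20.1 CPM with overlapping fish (adjusted p = 0.299).

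Thrombocyte genes also had higher values in FM, by less than the red cell genes. The median of the 9 members tested was 0.32, 5 were higher in FM at an unadjusted p below 0.05 (55.6%), and 0 were called by edgeR and 3 by DESeq2. Coagulation factor XIII A (f13a) had 1082, 857.9, 1235 and 1539 CPM in FM and 772.4, 774.9, 513.7 and 688.6 CPM in SBM. Integrin beta-3-like, part of the fibrinogen receptor and named only by the study's lists, had 309.5 to 508.8 and 193.8 to 281.6 CPM. Both separated the diets without overlap, with log2 fold changes of 0.78 and 0.71 (edgeR adjusted p = 0.240 and 0.241). The mean of the thrombocyte list overlapped between diets, with FM2 at 5.75 and SBM1 at 5.78 log2 CPM. Autophagy and mitophagy genes had a median of 0.04, and 8 of 42 were higher in FM at an unadjusted p below 0.05 (19.0%), with 0 called by edgeR and 3 by DESeq2. The most abundant of them, tp53inp2, an autophagy factor, had 157.8, 167.8, 293.0 and 290.9 CPM in FM and 90.0 to 129.0 CPM in SBM, the pattern of FM3 and FM4 again, while map1lc3b, which coats autophagosomes, differed by 0.06. Enzymes against peroxide and superoxide had a median of -0.01. Peroxiredoxin 1 (prdx1) had 134.2 to 230.7 CPM in FM and 82.0 to 115.7 CPM in SBM without a call (adjusted p = 0.180), and sod1 differed by -0.01.

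B cell genes had higher values in FM without a DEG. The median was 0.23 over 20 members, 16 of which were positive, with 0 called by edgeR or DESeq2. At an unadjusted p below 0.05, 6 were higher (30.0%) and 3 lower (15.0%) in FM, against 7.49% and 7.24% of all genes. Without overlap, 3 were higher (15.0%) and 1 lower (5.0%), against 4.15% and 4.03% of all genes. The list mean did not overlap between diets, with a centred mean of 0.24 in FM2, 0.00, 0.03 and 0.01 in FM1, FM3 and FM4, and -0.11 to -0.03 in SBM. Without FM2 the median was 0.12. The 2 most abundant members, cd53 and syk, overlapped between diets. T and NK cell genes had a median of -0.03 over 26 members, with 0 called by edgeR and 1 by DESeq2 and 4 at an unadjusted p below 0.05. The T helper receptor gene cd4 had a log2 fold change of 0.02, and prf1.3, a perforin of killer cells, ranged from 185.7 to 483.6 CPM in FM and from 179.5 to 732.6 CPM in SBM. A set of 3 genes that the study's lists name, drawn by the authors from these same fish, were DEGs here and lower in FM. Cytokine receptor common subunit gamma-like, shared by receptors of interleukin-2 type cytokines, had 42.0, 34.0, 34.0 and 35.2 CPM in FM and 51.0, 54.1, 49.7 and 54.3 CPM in SBM (log2 fold change -0.53, standard error 0.08, adjusted p = 0.0177). GTPase IMAP family member 7-like, a lymphocyte GTPase, had 5.02 to 6.78 CPM in FM and 8.52 to 10.1 CPM in SBM (-0.74, adjusted p = 0.0454). The other was sphingosine 1-phosphate receptor 1, which guides lymphocyte exit, at 2.29 to 6.07 CPM in FM and 7.94 to 10.99 CPM in SBM.

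Lists of inflammation and innate immunity held 1 DEG matched by symbol. Over all tested genes, 14.7% had an unadjusted p below 0.05 (7.49% higher and 7.24% lower in FM). Among 13 tested cytokines and chemokines the median was -0.25, 3 were lower in FM and 0 higher at an unadjusted p below 0.05, and cxcl12, given above, was that DEG, called without FM1 or SBM4 but in none of the other 6 leave-one-out fits. The lymphoid chemokine gene ccl19a.1 had 96.7 to 203.5 CPM in FM and 87.8 to 160.8 CPM in SBM. Neutrophil genes had a median of -0.12 over 18 members, with 3 at an unadjusted p below 0.05, 0 called by edgeR and 1 by DESeq2, and their mean was highest in FM1 and SBM1, at 0.26 and 0.27. The lysozyme gene lyz had 179.8 to 348.8 CPM in FM and 186.3 to 409.2 CPM in SBM, and csf3r, the receptor of granulocyte colony-stimulating factor, 154.7 to 238.9 and 187.3 to 230.2 CPM. Interferon response genes had a median of 0.13 over 23 members, with 2 at an unadjusted p below 0.05, 0 called by edgeR and 1 by DESeq2. FM2 alone was high, with a list mean of 0.64 above the 8-fish mean, and it also had the most stat2, at 308.5 CPM against 153.5 to 261.0 in the other 7 fish, and the most stat1a, at 378.3 CPM against 192.4 to 291.0. Antigen presentation (median -0.08 over 17 members) had 0 calls with either tool and 2 members at an unadjusted p below 0.05, and cd74a, the invariant chain of class II molecules, had 3948 to 5490 CPM in FM and 4934 to 5865 CPM in SBM. A class I gene named Sasa-UBA in the study's lists had 196.6 to 386.1 and 289.6 to 603.2 CPM. Complement genes, 4 of 12 of which were lower and 2 higher in FM at an unadjusted p below 0.05, had a median of -0.24 with 0 called by edgeR and 1 by DESeq2, and 3 were called by edgeR without FM1. The C1q genes of this list were also members of the macrophage list. The most abundant complement genes went opposite ways without a call, with log2 fold changes of -0.23 for cfd, complement factor D, and 0.20 for c6 of the membrane attack complex (edgeR adjusted p = 0.370 and 0.289). Sensors of the NACHT and toll-like families had a median of 0.03, 2 members at an unadjusted p below 0.05, 0 called by edgeR and 1 by DESeq2. The most abundant of these sensors was an NLRP12-like gene named only by the study's lists. It had 123.9, 147.3, 258.0 and 208.2 CPM in FM and 87.0 to 113.8 CPM in SBM (log2 fold change 0.84, adjusted p = 0.128), and tlr2, a toll-like receptor, differed by 0.08.

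Cell cycle genes leaned lower in FM without a DEG. Of 59 members tested, 54 had a negative log2 fold change, with a median of -0.17. At an unadjusted p below 0.05, 15 were lower (25.4% against 7.24% of all genes) and 0 higher, but 0 were called by edgeR and 3 by DESeq2 (1 by edgeR without FM2). FM1 was the lowest fish with a list mean of -0.34, SBM4 the highest with 0.21, and the diets overlapped. The topoisomerase gene top2a had 189.8, 233.0, 226.1 and 258.7 CPM in FM and 238.3, 269.5, 255.1 and 286.6 CPM in SBM, and hmgb2, a chromatin protein of dividing cells, differed by -0.03.

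The housekeeping programs differed little. Ribosomal protein genes had a median of 0.05 over 80 members, proteasome genes one of -0.04 over 36, and oxidative phosphorylation genes one of -0.05 over 57. Small differences leaned to 1 side, with 63 ribosomal genes higher and 17 lower in FM. Oxidative phosphorylation had 19 higher and 38 lower, and the proteasome 15 and 21. Without overlap, 7 ribosomal genes were higher (8.75% against 4.15% of all genes) and 0 lower. In each of these lists 0 members were called by edgeR and 0 by DESeq2, and 3, 0 and 3 had an unadjusted p below 0.05. The genes rl4a and rs8 of the ribosome differed by 0.01 and 0.06, psma5 and psme2 of the proteasome by -0.01 and -0.12, and atp5a1 and atp5j2 of the ATP synthase by -0.08 and -0.01. Immediate early genes, which respond within minutes to handling and other stimuli, had a median of 0.16, with 7 higher and 2 lower in FM at an unadjusted p below 0.05, 0 called by edgeR and 2 by DESeq2. The most abundant were tisd and zfp36l1a, from a family of RNA-destabilising zinc finger proteins, and both had negative log2 fold changes (-0.55 and -0.41, edgeR adjusted p = 0.110 and 0.154).

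Many DEGs lay outside all lists, since only 43 of the 125 belonged to a list. The DEG with the lowest p was an ependymin-like gene, from a family of secreted glycoproteins (chromosome 7, 10140149 to 10146471). It had 226.9, 255.9, 190.9 and 213.9 CPM in FM and 332.1, 374.6, 418.1 and 360.3 CPM in SBM, with a wide gap between the diets (log2 fold change -0.74, standard error 0.10, adjusted p = 0.00626). Gamma-glutamyltransferase 5-like, an enzyme that cleaves glutathione conjugates such as leukotriene C4 (chromosome 13, 86308155 to 86317493), had 40.7, 50.0, 55.6 and 56.7 CPM in FM and 89.4, 107.6, 78.2 and 93.4 CPM in SBM. Here FM1 was the FM fish farthest from SBM, unlike in most DEGs (log2 fold change -0.86, standard error 0.12, adjusted p = 0.00626). Anoctamin-1-like, a calcium-activated chloride channel (5671010 to 5741578 of chromosome 16), averaged 37.7 ± 3.38 CPM on FM and 63.7 ± 6.21 CPM on SBM (SD over n = 4 fish, log2 fold change -0.76, edgeR adjusted p = 0.00626). In the 8 fish on the yeast diets, the ependymin-like gene was at 292.9 to 403.6 CPM, gamma-glutamyltransferase 5-like at 69.6 to 102.6, anoctamin-1-like at 49.8 to 73.2 and mrc1 at 1165 to 1400, all above the highest FM fish of each gene. The exception among the 5 most stable DEGs was shmt2, at 53.9 to 77.4 CPM, whose upper end reached FM2.

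Other genes lower in FM included rab11fip3, an effector of recycling endosomes (-0.58), the adhesion gene protocadherin gamma-A12-like (-0.51) and kcrt, a creatine kinase (-0.78), all at adjusted p-values of 0.0177 to 0.0206. In protocadherin gamma-A12-like the SBM fish lay within 105.4 to 107.8 CPM, and the FM fish between 65.9 and 88.2. Among those higher in FM, a sodium/myo-inositol cotransporter-like gene (chromosome 17, 17182095 to 17191268), which imports the osmolyte myo-inositol, had 10.2, 7.74, 12.1 and 12.8 CPM in FM and 3.55, 4.67, 5.49 and 5.71 CPM in SBM. The change was 1.13 on the log2 scale (standard error 0.18, adjusted p = 0.0177), with every FM fish above every SBM fish. CD97 antigen-like, an adhesion receptor of leukocytes, had 42.1, 54.9, 53.5 and 45.01 CPM in FM and 25.6, 24.8, 32.6 and 26.7 CPM in SBM (0.84, adjusted p = 0.0206). The salt-inducible kinase gene sik2 (0.86), the chromatin remodeller gene chromodomain-helicase-DNA-binding protein 7-like (0.62), protein cramped-like (0.64), RNA polymerase II degradation factor 1-like (0.82), oxysterol-binding protein-related protein 3-like (0.55), b3galt2, a galactosyltransferase (0.62), itprid1 (0.82) and paplna, a papilin (0.78), were also DEGs, all without overlap between the diets.

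Markers of adjacent organs were read for the same 8 fish. The pancreatic elastase gene ela2 had 4193, 540.1, 943.8 and 2018 CPM in FM and 0.71, 1923, 479.0 and 38.2 CPM in SBM, and fish of both diets spread over much of this range (adjusted p = 0.70). The related ela2l followed it, from 475.4 to 3389 CPM in FM and from 0.71 to 1467 CPM in SBM. Of the intestinal markers, fabp2 had 12.04 to 46.8 CPM in FM and 32.1 to 49.1 in SBM, and vil1 had 22.3 to 36.8 and 13.01 to 21.8 CPM. The muscle creatine kinase gene ckm2 had 61.9 to 87.0 CPM in FM and 25.8 to 48.4 in SBM, without overlap and without a call (adjusted p = 0.233), while ckm1 was at 20.1 CPM in FM2 and at 1.71 CPM or less in the other 7 fish. The part of these markers in the list differences was not tested.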

How the data were processed

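Spleen mRNA libraries (TruSeq Stranded, 150 bp paired reads) of 16 fish were used. The authors trimmed reads with BBDuk, aligned them to ICSASG_v2 with HISAT2 2.1.0 and counted fragments per gene on the reverse strand with featureCounts (1.4.6-p1 per the submitters' notes, another version per the file headers). The values they deposited are raw counts for 79141 rows. Fragments with several matches or overlapping several genes were not counted, so near-identical gene copies are uncertain. A row without a gene name (0.205% to 0.475% of the counts of a fish) was left out.

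From these counts, genes passing filterByExpr by diet were scaled by TMM and fitted with edgeR 4.0.16 (R 4.3.3, glmQLFit with robust estimation, a mean per diet, all 16 fish). FM was contrasted with SBM by glmQLFTest, and DEGs were those whose p, adjusted after Benjamini and Hochberg, was below 0.05. Any adjusted p without another tool beside it is from this test. The standard error is the absolute log2 fold change over the square root of F. CPM used the TMM-scaled library sizes, with mean and SD over the 4 fish of a diet. List means are means of log2 CPM with a prior count of 2. The fit was tested on simulated data, and the common biological coefficient of variation was 0.199.

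The 30 lists were matched by symbol (from the files, or from RefSeq's Ssal_v3.1 gene table for 4859 LOC identifiers). Members found only through gene names in the study's supplementary lists are not counted among list members. Such members were called by the authors in a diet comparison of the study, not necessarily FM against SBM. They do enter the hemoglobin and red cell shares of the counts and the sets removed in the fits without those genes. The members and lists were chosen with earlier results of these data known, so no test was run over a list. Named genes are, among named DEGs whose average log2 CPM reached 1, the 12 with the lowest p in each direction, and in each list the called members and the 2 with the highest CPM, and 1 of these genes is not reported here. Alternatives were DESeq2 1.42.0, the 8 fish alone, RLE scaling, no filter, a replicate block, removal of hemoglobin or red cell genes, and each of the 8 fish left out. Counting the called members of each list under these settings was chosen after seeing the data. No fish deviated with its same-numbered fish of the other diet, so the numbers were not taken as pairs.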

Additional observations from a re-analysis of the deposited data

Results flagged for a closer look

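In 286 groups of 4 fish (each named gene and each list mean within a diet), 16 had a fish whose gap to its nearest neighbour exceeded Dixon's critical value as a share of the range of the group, and chance flags about 1 in 20 groups. In 8 of the 16, FM1 stood apart from the other FM fish. It was high, toward SBM, in the common gamma chain-like receptor (41.95 CPM), complement component C1q receptor-like (62.12), meis2 (54.63), prolyl 4-hydroxylase subunit alpha-1-like (36.42), C-type lectin domain family 4 member M-like (34.45) and GTPase IMAP family member 7-like (6.784), and low, also toward SBM, in protein cramped-like (35.88) and T-cell acute lymphocytic leukemia protein 1-like (84.8). FM4 was low in oit3 (22.67 CPM). Among the SBM fish, SBM2 was high in xlkd1 (138.5 CPM), SBM1 low in kcrt (81.56 CPM) and sesn1 (249.2 CPM), and SBM3 high in sphingosine 1-phosphate receptor 1 (10.99 CPM). Of the list means, FM2 was low in stroma and matrix (5.417 on the log2 CPM scale) and high in B cell genes (5.7224), and SBM2 was low in inflammatory cytokines and chemokines (4.232).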

How the results depend on the processing

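The number of DEGs was 125 in the analysis reported (32 higher and 93 lower in FM). It was 734 (387 and 347) with DESeq2, 38 (18 and 20) with the 8 fish alone, 124 with RLE scaling, 141 without a filter, 127 without hemoglobin genes and 108 without red cell genes. With 1 fish left out it was between 5 and 670, with 1 to 267 higher and 4 to 403 lower in FM. The replicate number as a block gave 110 DEGs (36 and 74), 81 of them among the 125. Deviations from the diet means correlated at -0.21 to -0.03 between fish of 1 number, so the numbers do not pair the fish. Of 400 list medians under other settings, 396 moved by less than the spread between fish. The others came with 1 fish left out, over which the median was between -0.41 and -0.23 for endothelium, -0.41 and -0.16 for complement, 0.12 and 0.29 for B cell genes and -0.34 and -0.17 for cytokines. Over 1701 refitted values of named genes, 0 called genes changed sign and 396 lost their call, nearly all with fewer fish. The depth, 5730980 to 9075622 counts per fish, limits genes near 1 CPM.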
